A study of Danio rerio with 16 samples.

Results

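Proliferation and DNA replication genes of the zebrafish were followed through sorted cells of the brain. The set held 10 genes, mki67, pcna, mcm2, mcm3, mcm5, mcm7, top2a, cdk1, ccnb1 and aurkb, which were named as a set and picked out of the deposited count table by symbol, with rows of 1 symbol added together. They are 10 of the 30565 symbols in the table. Bulk RNA sequencing had been done on 16 libraries in 4 groups of 4. Brains of fish aged 1 month, 8 pooled for each library, were dissociated with papain and sorted by flow cytometry. LH libraries came from GCaMP6s+ cells and non-LH libraries from GCaMP6s- cells of Tg(76A:Gal4FF;UAS:GCaMP6s) fish, in which a Gal4 line drives a calcium indicator and which served to isolate the lateral hypothalamus. In Tg(116A:Gal4FF;UAS:GFP) fish, used for the caudal hypothalamus, GFP+ cells gave the cH libraries and GFP- cells the non-cH libraries. A sorted group therefore holds cells sorted as reporter-positive from anywhere in the brain. Each negative group holds cells of the same line sorted as reporter-negative, called the remaining brain cells below. No source used here says whether the pools of a group were independent dissections, so p-values measure the spread between these libraries.

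A cell that is about to divide first loads the MCM helicase onto replication origins, then copies its DNA with the sliding clamp PCNA at the fork, and then condenses and separates its chromosomes. Genes for loading and copying are transcribed mainly from late G1 into S phase, and genes for mitosis mainly in G2 and M phase. In the brain of teleost fish, radial glia along the ventricles keep dividing after the embryonic period, the hypothalamus included, while neurons have left the cell cycle.

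Library totals ran from 26848940 to 49350823 counts. The cH libraries stood apart, with 14847 to 18779 rows detected against 20997 to 23440 in the other 12 libraries, and 2 of them, cH replicates 1 and 2, are left out together in one alternative given beside the cH results. Summed over 18 radial glia and progenitor genes, cH libraries held 56419 to 104278 CPM, against 3339 to 11012 CPM in the other groups. CPM are counts divided by the library total, scaled by TMM (trimmed mean of M-values). The largest counts in that sum were those of slc1a2b, glula, fabp7a and cx43, so it says little of the others. Singly, 11 of the 17 tested were called higher in cH than in non-cH (edgeR), beside 7.04% of all symbols. Among those not called were nes, sox9b, her4.2, her15.1 and vim. Between LH and non-LH 6 of the 17 were called, all lower, and 11 lay lower without overlap, beside 1.06% and 11.6% of all symbols. Over 12 neuron genes cH libraries held 237 to 1342 CPM and the other groups 6653 to 9308. Over 16 genes of committed progenitors and newborn neurons the sums were 5776 to 6606 CPM in LH and 9368 to 10585 in non-LH. They were 543 to 1438 CPM in cH and 8771 to 11782 for the non-cH libraries. The largest counts there were those of tubb5, sox4a and neurod1. Singly, 3 of 15 tested were called between LH and non-LH and 10 between cH and non-cH (edgeR), all lower, beside 1.06% and 13.4% of all symbols. Over 7 erythrocyte genes the sums were 53.3 to 101 CPM in LH against 1829.8 to 2669 in non-LH. In cH they were 0.213 to 9.94 CPM against 1122 to 2881 for non-cH. Over 12 genes of the lateral and caudal hypothalamus the sum was 2103 to 2519 CPM in LH and 238 to 297 in non-LH, whereas cH libraries spread from 191 to 1583 around the 231 to 298 of non-cH. That sum joins genes of both regions, listed with earlier results of these data known and so no independent check. Singly, 4 of its 11 tested genes were called between cH and non-cH (edgeR), beside 7.04% of all symbols called higher and 13.4% lower. Of these 4, tph1a and th2 encode enzymes of serotonin and dopamine synthesis, and gch1 an enzyme in the synthesis of their cofactor. They were higher in cH by 5.42 ± 0.88, 5.24 ± 1.13 and 3.51 ± 0.60 on the log2 scale (adjusted p = 0.00044, 0.004 and 0.000639). The fourth, onecutl, was lower by -9.67 ± 0.51 (adjusted p = 2.79e-08). Those not called lay in both directions, from -1.91 for rx3 to 5.53 for slc6a4b, with dbx1a at -1.53. The gene fev was not tested. It was at 0 throughout cH, while the non-cH libraries totalled 225 counts. Sums over 10 oligodendrocyte, 10 microglia and 8 endothelial genes were also lower in cH than in non-cH without overlap, at means of 3665 against 9785, 376 against 845 and 7.52 against 104 CPM. In LH and non-LH these means were 5648 and 8999, 1457 and 699, and 85.1 and 62.4 CPM. The largest counts were those of plp1b and mbpa in the oligodendrocyte sum and of apoeb in the microglia sum. Tested singly between cH and non-cH, 1 of 10 oligodendrocyte, 1 of 6 microglia and 3 of 7 endothelial genes were called (edgeR). All of these calls were lower in cH, beside 13.4% of all symbols called lower. Among these markers c1qa was at 0 in LH, non-LH, cH and non-cH alike, and kdrl was at 0 in LH and cH. Both symbols were spread over 2 rows, and a value of 0 for them was not read as lack of expression. The share of any of these cell types in a difference below was not tested. In bulk libraries fewer cells of a type and less RNA per cell cannot be told apart.

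Among genes of DNA replication, pcna fell in LH against non-LH, and mcm7 and mcm5 did not pass over 16 libraries but did when the 8 libraries of the line were fitted. The clamp gene pcna measured 162, 197, 193 and 272 CPM in LH replicates 1 to 4 and 558, 518, 472 and 545 CPM in non-LH. Every LH library lay below every non-LH library, with LH replicate 4 the highest of its group. The fall was 1.34 ± 0.21 (SE) on the log2 scale, a 2.54-fold lower mean (edgeR quasi-likelihood test over 16 libraries, Benjamini-Hochberg adjusted p = 0.00385).

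The 4 MCM genes encode subunits of the replicative helicase. For mcm7 the LH libraries held 116, 126, 107 and 123 CPM and the non-LH libraries 208, 213, 222 and 251 CPM. These groups were far apart and tight, with means of 118 ± 8.36 and 224 ± 18.9 CPM (SD, n = 4). The difference of -0.92 ± 0.23 had an adjusted p of 0.067 over 16 libraries and 0.000306 when only the 8 libraries of the line were fitted.

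For mcm2 the values were 75.3, 58.2, 47.1 and 136 CPM in LH and 141, 141, 202 and 181 CPM in non-LH. LH replicate 4 came close to the lowest non-LH library without crossing it. The mcm5 values were 65.1, 54.3, 60.4 and 99.6 CPM in LH and 101, 105, 126 and 144 CPM in non-LH, and for mcm3 they were 34.8, 55.2, 77.4 and 101 CPM against 95.9, 108, 135 and 172 CPM. Only mcm3 of the 9 tested members overlapped between LH and non-LH, through LH replicate 4. Differences for mcm2, mcm5 and mcm3 were -1.07 ± 0.44, -0.77 ± 0.28 and -0.93 ± 0.31, with adjusted p of 0.376, 0.278 and 0.211 over 16 libraries and 0.0531, 0.0457 and 0.101 over 8.

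Log2 differences of the division genes between LH and non-LH ran from -2.04 to -1.47, beside -1.34 to -0.77 for the replication genes, a contrast that was not tested. The proliferation marker mki67, whose protein coats mitotic chromosomes, measured 82.4, 67.9, 65.0 and 92.2 CPM in LH and 307, 323, 255 and 352 CPM in non-LH. No library of one group came near the other. The fall of 2.01 ± 0.41 on the log2 scale corresponds to a 4.02-fold lower mean (adjusted p = 0.0203). That call was lost when any LH library or non-LH replicate 1, 2 or 4 was left out, at adjusted p between 0.0505 and 0.0702, with log2 changes from -2.09 to -1.91 over all libraries left out in turn.

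The topoisomerase gene top2a, which untangles sister chromatids, held 85.3, 40.9, 78.7 and 79.7 CPM in LH against 302, 228, 279.8 and 298 CPM in non-LH. The kinase gene aurkb, of the chromosomal passenger complex, held 16.7, 20.0, 13.2 and 16.9 CPM against 64.2, 59.9, 71.9 and 78.6 CPM. For ccnb1, the cyclin that activates Cdk1 at mitotic entry, the values were 16.8, 23.3, 29.1 and 38.03 CPM against 79.7, 69.6, 64.0 and 84.6 CPM. In each of the 3 genes all LH libraries were below all non-LH libraries, and LH replicate 2 was low for top2a.

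Their log2 differences were -1.96 ± 0.85 for top2a, -2.04 ± 0.94 for aurkb and -1.47 ± 0.69 for ccnb1, with adjusted p of 0.423, 0.477 and 0.49 in the fit of 16 libraries. That fit shares 1 estimate of spread with the cH libraries, in which the same genes ranged widely. Whether this accounts for the missing calls was not tested. Fitted on the 8 libraries of the line, top2a fell by 1.92 ± 0.22 (adjusted p = 0.000378), aurkb by 2.00 ± 0.18 (adjusted p = 8.97e-05) and ccnb1 by 1.43 ± 0.25 (adjusted p = 0.00401). Without cH replicate 2 alone, the fit of the remaining libraries also called top2a and aurkb, at adjusted p of 0.00543 and 0.00143, and mcm7 at 0.0106. Leaving out cH replicate 1 called mcm7 at 0.0163. The ccnb1 gene was not called in any fit that left out 1 library, with a lowest adjusted p of 0.0653.

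Counted together, 2 of the 9 tested members passed at an adjusted p of 0.05 between LH and non-LH over 16 libraries, both lower, where 1.06% of all symbols tested were called lower and 0.608% higher. Over the 8 libraries of the line 7 of 9 passed, all lower, against 6.24% of symbols called lower and 7.14% higher. Of the 12 libraries without cH, the fit called 8 members (11.5% of symbols), and without cH replicates 1 and 2 it called 6 (6.25%). DESeq2 over 16 libraries called 3 members (5.71% of symbols). Without overlap between the groups, 8 of 9 were lower in LH, against 11.6% of symbols. The median log2 difference of the 9 was -1.34, beside -0.06 for all symbols tested. In the exact two-sided permutation test of mean CPM, these 8 genes reached 0.029, the smallest p that 4 against 4 libraries allow, and mcm3 reached 0.0571. After Benjamini-Hochberg adjustment over 40 such tests 0.029 became 0.0544.

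**Figure D1:**
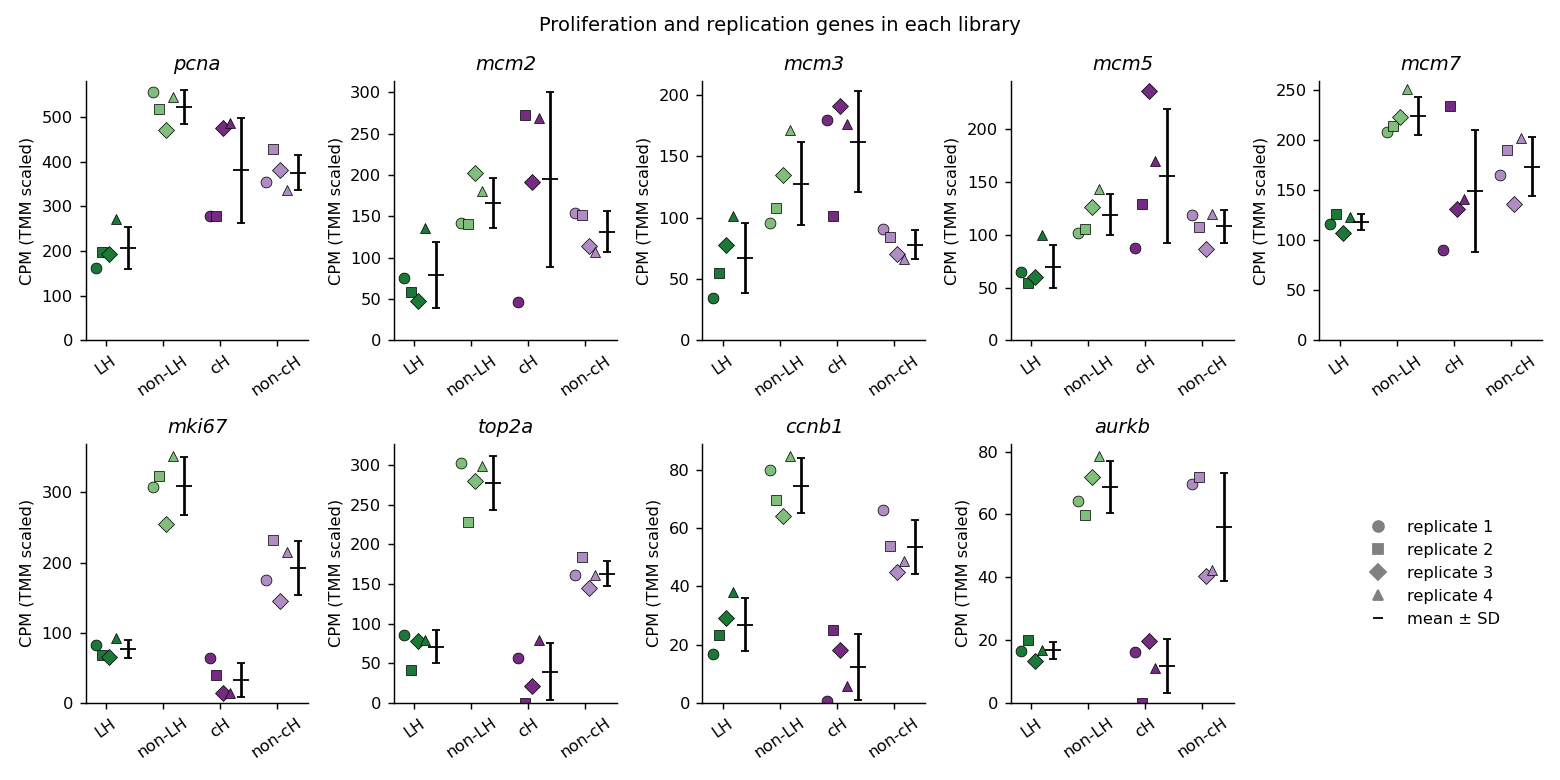
TMM-scaled CPM (vertical axis) of the 9 tested members in each of the 16 libraries, by group, with marker shape for the replicate and bars for the mean ± SD. LH points lie below non-LH points for 8 genes, and cH points lie low for mki67, top2a, ccnb1 and aurkb but not for pcna.

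Between cH and non-cH mki67 and ccnb1 were called lower and mcm3 higher, and the call of ccnb1 ended in most fits that left out 1 library. Among genes of replication, pcna held 279, 279.7, 477 and 488 CPM in cH and 356, 428, 381 and 338 CPM in non-cH. The cH libraries fell into a lower and a higher pair on either side of the non-cH libraries, and the log2 difference was 0.02 ± 0.20 (edgeR, adjusted p = 0.967). Such a p does not show equal levels.

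Helicase gene mcm3 was the one member called higher in cH. It measured 179, 101, 191 and 176 CPM in cH against 90.9, 84.1, 70.5 and 66.3 CPM in non-cH. All cH libraries were above all non-cH libraries, cH replicate 2 by the least. The mean was 2.08-fold higher (log2 difference 1.05 ± 0.31, adjusted p = 0.0247). Leaving out cH replicate 3, non-cH replicate 3 or non-cH replicate 4 ended the call, at adjusted p of 0.0514, 0.0651 and 0.0705.

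The other helicase genes overlapped between cH and non-cH. For mcm2 the cH libraries held 46.4, 272, 192 and 269 CPM and the non-cH libraries 154, 152, 114 and 106 CPM, so that cH replicate 1 was the lowest and the other cH libraries the highest of the 8. Those of mcm5 were 87.4, 129.6, 236 and 170.2 CPM against 119, 107, 86.3 and 120.1 CPM. For mcm7 they were 89.8, 234, 131 and 141 CPM against 165, 189.5, 136 and 202 CPM. The log2 differences of 0.57 ± 0.43, 0.53 ± 0.28 and -0.22 ± 0.23 had adjusted p of 0.406, 0.206 and 0.579. Without cH replicate 1, mcm2 and mcm5 passed at adjusted p of 0.0432 and 0.0409, with differences of 0.94 and 0.78.

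Every division gene tested lay lower in cH than in non-cH without overlap. mki67 measured 63.5, 39.3, 13.7 and 13.8 CPM in cH and 175, 232, 146 and 215 CPM in non-cH, with cH replicates 3 and 4 far below the other cH pair. The mean was 5.90-fold lower (log2 difference -2.56 ± 0.41, adjusted p = 0.000413), and the call held with each library left out in turn.

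ccnb1 held 0.565, 24.98, 18.1 and 5.74 CPM in cH against 66.0, 53.9, 45.1 and 48.6 CPM in non-cH. Its fall of 2.11 ± 0.70 on the log2 scale passed narrowly (adjusted p = 0.0457). The call ended in 14 of the 16 fits that each left out 1 library, at adjusted p up to 0.107 without cH replicate 4, and in the fit of the 8 libraries, at 0.243.

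For top2a the cH values were 56.5, 0.214, 21.6 and 79.8 CPM against 161, 183, 145 and 162 CPM in non-cH. For aurkb they were 16.1, 0, 19.8 and 11.2 CPM against 69.6, 72.0, 40.2 and 42.3 CPM. Both genes were at or near 0 in cH replicate 2, and top2a ranged from 21.6 to 79.8 CPM over the other cH libraries. The log2 differences were -2.04 ± 0.85 and -2.25 ± 0.95, with adjusted p of 0.105 and 0.107. Without cH replicate 2 they were -1.59 and -1.79, with adjusted p of 0.00518 and 0.000686.

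In this comparison 1 of the 9 members was called higher and 2 lower, where 7.04% of symbols tested were called higher and 13.4% lower. Call counts so close to those shares were not read as a result about the members as a set. Without overlap, 4 were lower and 1 higher, against 17.1% and 7.68% of symbols. The fit of the 8 libraries called 1 higher and 1 lower, beside 5.05% and 6.85% of symbols. The median difference of the 9 was -0.22, beside -0.32 for all symbols. With cH replicates 1 and 2 both left out, 6 members passed, against 26.3% of symbols called in either direction: mcm3 at 1.30 and mcm5 at 0.97 were higher, and mki67 at -3.75, top2a at -1.62, ccnb1 at -2.10 and aurkb at -1.80 were lower.

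**Figure D2:**
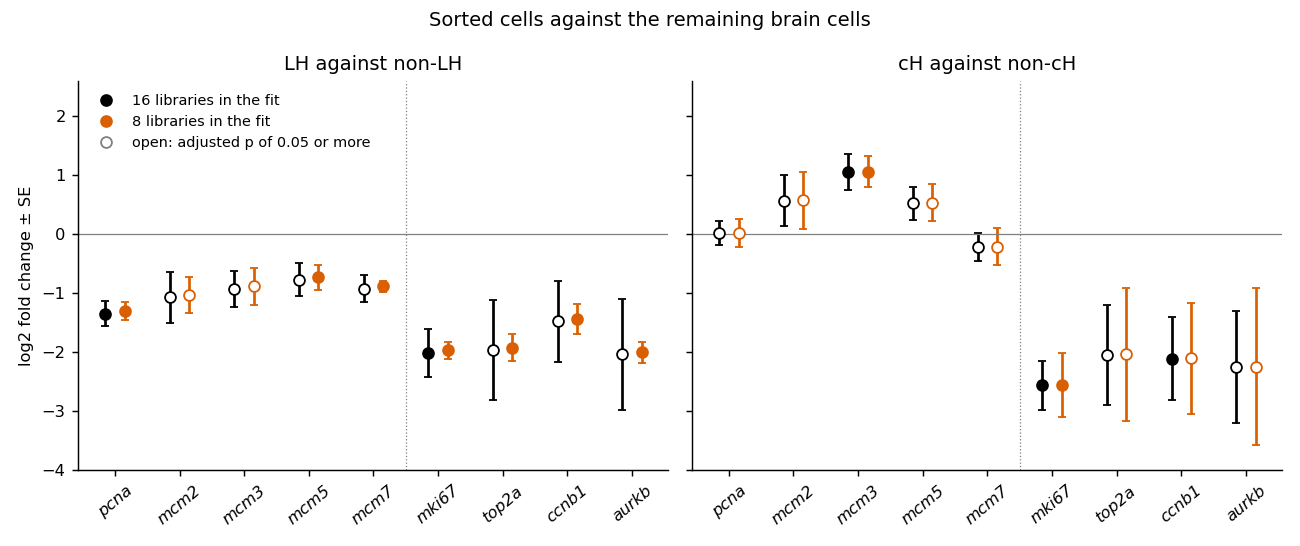
Log2 fold change ± SE of the 9 tested members for sorted against remaining cells, in black from the fit of 16 libraries and in orange from that of 8, filled where the adjusted p is under 0.05. Every member lies below 0 for LH, while for cH the helicase genes mcm2, mcm3 and mcm5 lie above 0 and the division genes below.

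The balance of the 2 roles was described by adding CPM over the 5 replication genes pcna, mcm2, mcm3, mcm5 and mcm7 and over the 4 division genes mki67, top2a, ccnb1 and aurkb. This split was made after the values had been seen and carries no test. Replication genes summed to 541 ± 129 CPM (SD, n = 4 here and below) across LH libraries, and non-LH libraries summed to 1159.8 ± 93.2. The cH libraries reached 1042.5 ± 261 CPM and non-cH libraries 866 ± 74.6 CPM. Division genes summed to 192 ± 31.2, 729.6 ± 67.1, 96.2 ± 33.6 and 465 ± 67.9 CPM for LH, non-LH, cH and non-cH. The ratio of the first sum to the second was 4.99, 15.8, 16.8 and 11.3 in cH replicates 1 to 4, whereas LH ran from 2.26 to 3.23, non-LH from 1.47 to 1.73 and non-cH from 1.77 to 2.09. All 4 cH ratios lay above those of every other library.

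**Figure D3:**
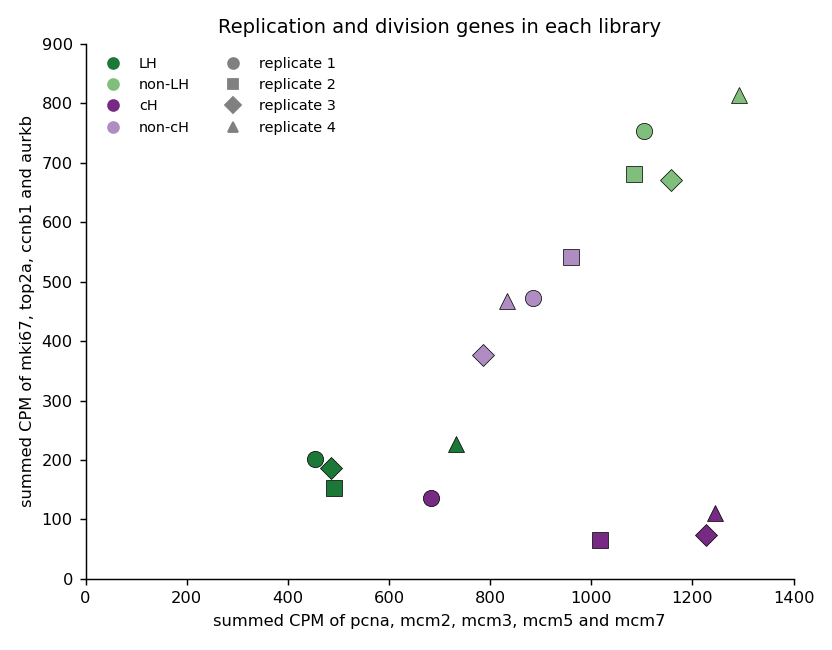
Summed CPM of the 5 replication genes (horizontal axis) against that of the 4 division genes (vertical axis), 1 point per library, coloured by group and shaped by replicate. The cH libraries reach 682 to 1244 CPM for replication and 64.5 to 137 CPM for division.

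Whether the 2 lines differed in their sorted-minus-remaining change was tested as an interaction in the fit of 16 libraries. The change in LH was lower than that in cH for mcm3 by -1.98 ± 0.44 (edgeR, adjusted p = 0.00701), for pcna by -1.36 ± 0.29 (adjusted p = 0.00548) and for mcm5 by -1.30 ± 0.40 (adjusted p = 0.0449). These 3 of 9 members compare with 4.52% of symbols called in that direction. For mcm2 and mcm7 the differences were -1.64 and -0.71, with adjusted p of 0.104 and 0.195. Division genes gave 0.55 for mki67, 0.08 for top2a, 0.64 for ccnb1 and 0.21 for aurkb, none of which passed. Calls of mcm3 and pcna held with each library left out, at adjusted p up to 0.0199 and 0.0166. That of mcm5 was lost in most such fits, at adjusted p up to 0.0986, and held only without LH replicate 4, cH replicate 1 or cH replicate 2. Without cH replicates 1 and 2, 5 members were called, beside 21.3% of symbols.

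LH and cH, which differ in driver, reporter and cells at once, were also set against each other. Here mki67 was higher in LH by 1.24 ± 0.40 (edgeR, adjusted p = 0.0357), and pcna, mcm2, mcm3 and mcm5 were lower by -0.89 ± 0.21, -1.30 ± 0.44, -1.27 ± 0.31 and -1.16 ± 0.28 (adjusted p = 0.00568, 0.0451, 0.00803 and 0.00803). That is 1 of 9 members higher and 4 lower, against 14.0% and 8.77% of symbols. Without overlap were mki67, higher in LH, and pcna and mcm3, lower, against 18.7% and 8.69% of symbols. The gaps were narrow and hold for TMM-scaled CPM. For mki67 the lowest LH library held 65.0 CPM and the highest cH library 63.5. The highest LH and lowest cH libraries held 272 and 279 CPM for pcna and 101.18 and 101.29 CPM for mcm3. With 1 library left out the call of mki67 was lost in some fits, at adjusted p up to 0.0768. That of mcm2 was lost in most, at up to 0.122, and held only without LH replicate 4 or cH replicate 1. Those of pcna, mcm3 and mcm5 held. The fit of these 8 libraries alone called 0 members in edgeR (13.6% of symbols). In that fit 4 members were at an unadjusted p under 0.05, beside 4104 of 17044 symbols. DESeq2 over 16 libraries called 5 members (32.7% of symbols).

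The remaining cells of the 2 lines, which differ in driver, reporter and the cells removed, were compared as well. Between non-LH and non-cH, 0 of 9 members were called in edgeR, with 2 at an unadjusted p under 0.05, as were 572 of all 20241 symbols, and DESeq2 also called 0. The fit of these 8 libraries called 0 too, with 6 of 9 members at an unadjusted p under 0.05, all higher in non-LH, beside 1581 of 18865 symbols. In that fit 33 of the 137 other cell cycle genes described below were at an unadjusted p under 0.05, 29 of them higher in non-LH. Of all symbols edgeR called 0.00988% and DESeq2 0.79%. All 9 log2 differences were above 0, from 0.14 for mcm5 to 0.77 for top2a, and mki67, pcna, mcm3, mcm7 and top2a were higher in non-LH without overlap, against 3.59% of symbols.

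cdk1, the mitotic kinase that pairs with cyclin B, could not be followed. Its 2 rows in the table held 2 counts over all 16 libraries, both in non-LH replicate 4, and it was the 1 member that did not pass the filter on low counts. Among the 29 listed cell cycle and member symbols that were spread over more than 1 row, 7 held under 30 counts in all, as did 1 of the 126 symbols with a single row. Plk1, a mitotic kinase, and cdc6, a helicase loading factor, were among the 7. A low value of such a symbol was not read as low expression.

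Other genes of the cell cycle were followed in 5 lists with 145 symbols in the table outside the members, of which 137 were tested. Between LH and non-LH 0 were called higher and 4 lower over 16 libraries, beside 0.608% and 1.06% of all symbols. These were ccna2, the S and G2 cyclin, at -2.28 ± 0.31 (edgeR, adjusted p = 0.00136), rrm2, a subunit of ribonucleotide reductase, at -1.87 ± 0.38 (adjusted p = 0.0202), tk1, the S-phase thymidine kinase, at -1.78 ± 0.35 (adjusted p = 0.0162), and smc4, a condensin subunit, at -1.40 ± 0.28 (adjusted p = 0.0199). DESeq2 called 19, beside 5.71% of all symbols. Over the 8 libraries of the line 60 of 134 were lower and 1 higher, beside 6.24% and 7.14% of all symbols. The one that rose was tob1a, an antiproliferative factor, at 0.99 ± 0.13 (adjusted p = 0.000699).

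By list, the median log2 difference between LH and non-LH was -1.03 over 19 genes of origin licensing and helicase, -0.9996 over 32 of the fork and nucleotide supply, -1.19 over 18 of G1 and S phase, -1.99 over 47 of G2 and mitosis, and -0.38 over 21 inhibitors and pocket proteins. In the fit of 8 libraries 0 licensing genes passed in edgeR. At an unadjusted p under 0.05 were 8 of the 19, beside 4706 of 18674 symbols. Lower calls numbered 16 of 31 for the fork, 8 of 17 for G1 and S phase and 34 of 46 for G2 and mitosis, each to be read against the same 6.24%. The G2 and mitosis list, which the division members belong with by role, thus had the lowest median. The spindle checkpoint kinase gene ttk held 8.52 ± 6.65 CPM in LH and 76.6 ± 21.2 CPM in non-LH. It did not pass over 16 libraries (edgeR, adjusted p = 0.222) but did over the 8 libraries of the line (adjusted p = 0.00334).

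Between cH and non-cH 5 of the 137 were called higher and 12 lower in edgeR, where 7.04% and 13.4% of all symbols were, and DESeq2 called 31, beside 29.7% of all symbols. In the G2 and mitosis list 7 were lower and 0 higher, with a median of -1.94 beside -0.32 for all symbols, and 21 of 47 lay lower without overlap, beside 17.1% of all symbols. The 7 calls of 47 are close to the 13.4% of all symbols called lower. tacc3, which stabilises spindle microtubules, had 0 counts in the 4 cH libraries and 6268 in non-cH. Taking 3 counts over the group as the floor gives a 1624-fold difference. That floor covers counting error only, and a loss of transcripts in the cH libraries, which had fewer rows detected, could lie beyond it. Separase, espl1, fell from 11.3 ± 1.25 to 0.0356 ± 0.0712 CPM (adjusted p = 0.00287), and smc4 by 1.02 ± 0.28 on the log2 scale (adjusted p = 0.0171, but 0.133 over the 8 libraries).

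Lists that act before mitosis had medians nearer to 0 in cH. The median was 0.32 for origin licensing, 0.08 for the fork and -0.03 for G1 and S phase. fen1, the flap endonuclease of lagging strand synthesis, rose by 0.84 ± 0.21 (adjusted p = 0.00834, but 0.0788 over the 8 libraries), and ccna2 fell by 1.44 ± 0.30 (adjusted p = 0.00314). The helicase gene mcm4 measured 141 ± 58.0 CPM in cH and 78.4 ± 8.40 CPM in non-cH (adjusted p = 0.0991). The kinase gene cdc7, of the licensing and helicase list, had 0 counts in cH and 8.15 ± 6.20 CPM in non-cH. Taking the same floor of 3 counts gives a 367-fold difference, with the limit stated for tacc3. In the fit of the 8 libraries cdc7 was not tested.

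Inhibitors moved both ways in cH, with 4 of 21 higher and 2 lower, beside the same 7.04% and 13.4% of all symbols. gadd45ba, a stress-induced growth arrest gene, rose from 531 ± 170 to 1802 ± 123 CPM (log2 difference 1.76 ± 0.21, adjusted p = 2.98e-05), and btg2, an antiproliferative gene, rose from 587 ± 194 to 1486 ± 288 CPM (1.34 ± 0.20, adjusted p = 0.000185). The count in the lists fell from 17 to 5 in the fit of the 8 libraries and rose to 40 without cH replicates 1 and 2. Of all symbols 20.4%, 11.9% and 26.3% were called in the same settings, so the count moved with the share of all symbols.

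**Figure D4:**
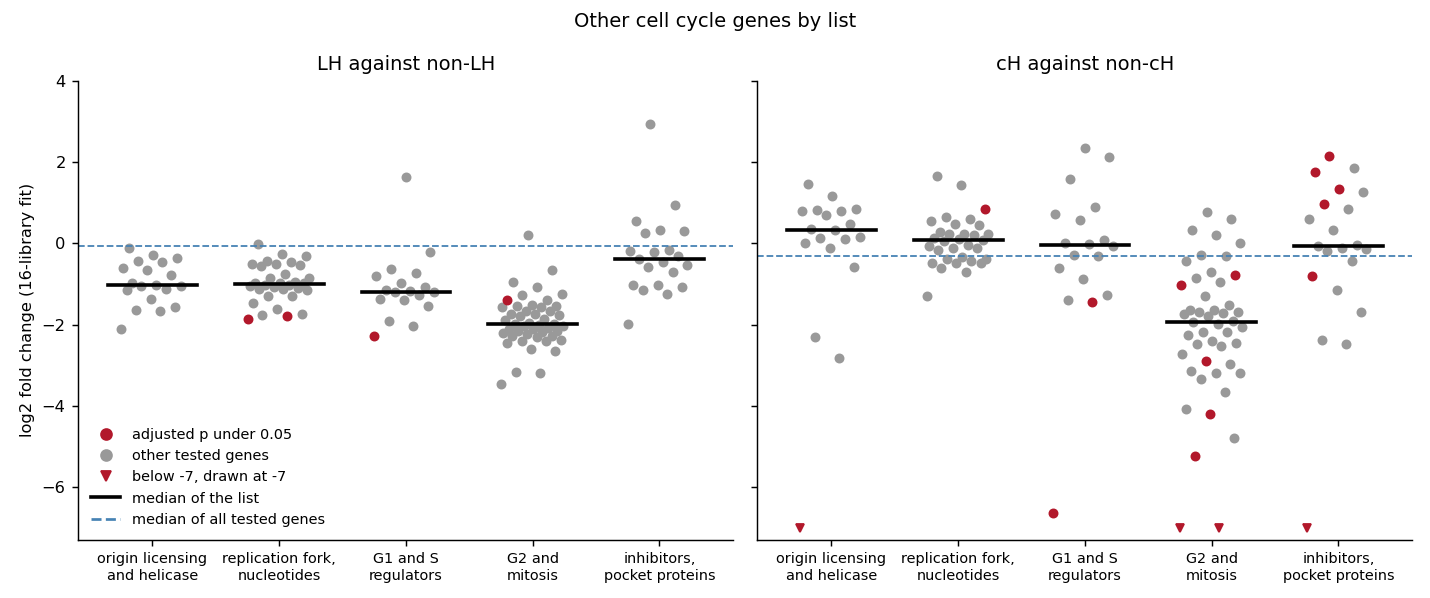
Log2 fold changes over 16 libraries of the tested genes of each cell cycle list, red where called, with a bar at the list median and a dashed line at the median of all symbols; triangles at the lower edge are fitted values further down. The G2 and mitosis list has medians of -1.99 in LH and -1.94 in cH, while the licensing list has -1.03 and 0.32.

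Outside these lists, 10935 symbols with a mean of at least 5 CPM were ranked by Pearson correlation with the members over the 16 libraries, which share groups and depth. chd7, a chromatin remodeller, had r = 0.91, olig4, a transcription factor, r = 0.91, and rpl17 r = 0.90. Further down were rpl10a at 0.88, eef1b2 at 0.87, igsf9b at 0.86 and rps8a at 0.86. rpl17, rpl10a and rps8a encode ribosomal proteins and eef1b2 a translation elongation factor. LH libraries held 173 ± 41.1 CPM of chd7 and non-LH libraries 613 ± 28.1 CPM, and the cH and non-cH libraries 226 ± 47.9 and 539 ± 61.5 CPM.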

How the data were processed

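Sequencing counts of 16 libraries were used as the authors deposited them, in 1 table of raw counts per gene. Per the submitters' processing notes, FastQC, STAR and the build GRCz11 were used, and per the labels' protocols libraries were SMART-seq v2 with Nextera XT; the counter, versions and strand setting are not given in the sources used here, so overlapping genes may share reads. Of 47038 rows 9 were left out, and 5938 symbols had rows added together. edgeR 4.0.16 in R 4.3.3 was run with TMM scaling, filterByExpr and quasi-likelihood tests on 4 group means over 20241 symbols, with Benjamini-Hochberg adjustment at 0.05. Each SE of an edgeR log2 difference was derived from the test and not estimated by the model. It is the size of the difference divided by the square root of the F statistic. Exact permutation tests compared mean CPM. Alternatives were the 8 libraries of a comparison, a replicate block, DESeq2 1.42.0, other scaling, no filter, unsummed rows and libraries left out. Only the edgeR fit of 16 libraries was run on simulated data, for LH against non-LH. The simulation gave each gene the same spread in all groups, unlike the wider spread of the cH libraries. Reads carry no molecular identifiers, so floors cover counting error only. Members, lists and tests were chosen with earlier results of these data known. From each cell cycle list the 3 genes with the smallest p in each comparison of sorted with remaining cells could be named. The ranking of genes by likeness to the members is given in part, since 1 result of it is not reported here.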

Additional observations from a re-analysis of the deposited data

Results flagged for a closer look

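In 2 of 36 groups of 4 libraries examined, 1 library lay far from the other 3 by Dixon's criterion at the 95% level, which chance exceeds in about 1 of 20 groups. They were mcm3 in cH replicate 2, at 101 CPM below the other cH libraries, and top2a in LH replicate 2, at 40.9 CPM below the other LH libraries.

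The change from remaining to sorted cells differed between the lines by the interaction test (edgeR, adjusted over all symbols) for 3 members, on the log2 scale by -1.98 for mcm3, -1.36 for pcna and -1.30 for mcm5, each lower in LH. The call of mcm5 was lost in most of the fits that left out 1 library.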

How the results depend on the processing

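Between LH and non-LH, the count of members called was 2. It was 7 over the 8 libraries of the line, 8 over 12 libraries without cH and 6 without cH replicates 1 and 2. DESeq2 called 3, and with 1 library left out the count ran from 1 to 5. The other cell cycle genes called numbered 4, and 61, 67 and 38 under the same settings, 19 in DESeq2, and 1 to 15 with 1 library left out. Between cH and non-cH the members called went from 3 to 6 without cH replicates 1 and 2 and 1 to 5 with 1 library left out, and the other genes from 17 to 5 over 8 libraries, 40 without cH replicates 1 and 2, 31 in DESeq2 and 12 to 25 with 1 library left out. LH against cH gave 5, 0 over 8 libraries, and 3 to 5 with 1 left out, and the interaction 3, then 5 without cH replicates 1 and 2 and 2 to 5 with 1 left out. Non-LH against non-cH stayed at 0 to 0. Of all symbols 1.67% were called between LH and non-LH, and 5.71% in DESeq2. The share was 13.4% over the 8 libraries, 11.5% over 12 libraries without cH and 6.25% without cH replicates 1 and 2. Between cH and non-cH the share was 20.4%, and 11.9% over 8 libraries, 26.3% without cH replicates 1 and 2 and 29.7% in DESeq2. The cause of these shifts was not tested. With 1 library left out the share of all symbols called was not counted. Those ranges of counts were therefore not read as results about the members or lists.

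Same-numbered libraries had correlations of deviations from 0.0125 to 0.0838, beside -0.00402 to 0.0552 for the highest with another number. Ranges so small and overlapping could not decide whether the numbers pair sorted and remaining cells, so a block was fitted as an alternative. With a replicate block the counts were 1 for members and 1 for other genes between LH and non-LH, and over 8 libraries 9 and 52. Between cH and non-cH over 8 libraries they were 0 and 2, and for LH against cH 0. The share of all symbols called with a block was not counted, so these counts were not read as results about the members or lists. The block turned pcna in cH to -0.027, and to -0.0187 over 8 libraries.

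No called direction reversed. Uncalled signs turned for pcna in cH (-0.0838 to 0.196 with 1 library left out), mcm7 in cH (-0.471 to 0.00718), and the interaction of top2a (-0.34 to 0.70, and -0.30 without cH replicates 1 and 2) and aurkb (-0.21 to 0.59, and -0.20).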
